A study of Homo sapiens with 2 samples.

Results

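The APOBEC3 cytidine deaminases are encoded by 7 genes in a row on chromosome 22. They were taken by symbol from a table of read counts for 58735 human genes, and all 7 were found. The set was selected on a measured value, the low ratio of APOBEC3G reads in the treated library beside its chromosome 22 neighbours, so the ratios below describe these libraries and support nothing by themselves. The study measured RNA-seq in SUIT-2, a human pancreatic adenocarcinoma cell line, in a derivative of high metastatic potential. One library came from cells labelled NC, called untreated here, and the other from cells treated with dihydroartemisinin (DHA). DHA is the active form of the artemisinin antimalarials, whose endoperoxide bridge reacts with iron and heme. The sources used here give no dose and no exposure time, and do not say whether the NC cells received vehicle. With 1 library per group there was no replicate error, no test and no p-value, and higher or lower always refers to these 2 libraries alone.

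APOBEC3 enzymes turn cytidine into uridine in single-stranded DNA. They are known as restriction factors of retroviruses and retroelements, and the lentiviral protein Vif counters them by bringing APOBEC3G and others to a cullin ubiquitin ligase. In epithelial tumours APOBEC3A and APOBEC3B are known as sources of clustered and scattered C-to-T and C-to-G mutations. Lymphoid and myeloid cells are the usual sites of high APOBEC3G expression.

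Each enzyme is built from 1 or 2 zinc-coordinating deaminase domains, and some of the domains are close copies of each other. In the principal coding transcripts of GENCODE release 29, the zinc motif (a histidine and a glutamate, then a proline-cysteine pair and a further cysteine) occurred at 1 place in APOBEC3A, APOBEC3C and APOBEC3H and at 2 places in APOBEC3B, APOBEC3D, APOBEC3F and APOBEC3G. The coding DNA of the last or only motif is printed for the 7 genes, because it shows how alike the members are whose reads had to be told apart. Each stretch has 45 bases and is read 5′ to 3′ on the plus strand of GRCh38, with the codons of the proline-cysteine pair and of the further cysteine in capitals.
APOBEC3A: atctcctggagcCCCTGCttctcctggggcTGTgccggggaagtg
APOBEC3B: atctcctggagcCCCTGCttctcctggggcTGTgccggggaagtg
APOBEC3C: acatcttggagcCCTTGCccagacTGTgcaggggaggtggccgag
APOBEC3D: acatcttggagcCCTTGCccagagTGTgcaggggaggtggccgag
APOBEC3F: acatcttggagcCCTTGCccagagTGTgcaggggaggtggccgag
APOBEC3G: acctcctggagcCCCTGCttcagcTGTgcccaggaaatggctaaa
APOBEC3H: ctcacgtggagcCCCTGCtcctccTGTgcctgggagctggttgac

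The stretches of APOBEC3A (chr22:38961498-38961542, exon 4) and APOBEC3B (chr22:38991443-38991487, exon 6) were identical. So were those of APOBEC3D (chr22:39031793-39031837, exon 6) and APOBEC3F (chr22:39052173-39052217, exon 6), and that of APOBEC3C (chr22:39017865-39017909, exon 3) differed from them at 1 of the 45 bases. The APOBEC3G stretch (chr22:39086390-39086434, exon 6) shared 28 of 45 bases with APOBEC3F and 31 with APOBEC3H (chr22:39101324-39101368, exon 3). Over the aligned coding sequences, APOBEC3A and APOBEC3B were 93.2% identical, APOBEC3C and APOBEC3D 90.6%, and APOBEC3F and APOBEC3G 71.9%. APOBEC3F and APOBEC3G nevertheless had a run of 142 identical coding bases. The first motifs of the genes with 2 are not printed. Those of APOBEC3B (chr22:38985911-38985955, exon 3) and APOBEC3F (chr22:39045040-39045084, exon 3) were identical over 45 bases. APOBEC3B and APOBEC3F had a run of 131 identical coding bases.

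This likeness bears on the counts, since the sources used here do not say how reads fitting several genes were counted. Of the 1785 windows of 50 bases in the APOBEC3G transcript, 341 (19.1%) also occurred in a transcript of another gene, 301 of them in APOBEC3F. For APOBEC3C only 1.16% of windows did so, and for APOBEC3H 0%. The shares were 24.2% for APOBEC3F, 28.5% for APOBEC3A, 50.5% for APOBEC3B and 88.4% for APOBEC3D. Annotated exons overlapped as well. APOBEC3B shares 18.4% of its exon length with the APOBEC3A gene model, which runs through it on the same strand, and 12.9% with the antisense gene APOBEC3B-AS1. APOBEC3D shares 83.2% with AL022318.4, a model that joins APOBEC3C and APOBEC3D. By these measures the counts of APOBEC3B and APOBEC3D are the least certain of the members with reads, and those of APOBEC3C among the most certain.

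Counted reads numbered 15452609 for untreated cells and 14521101 for treated cells. Levels are given as CPM, counts per 1000000 reads of a library size adjusted with edgeR's TMM factors, with 95% intervals that cover counting error only. The size rule asked for 50 or more reads in either library, a difference of 2-fold or more, and a 95% counting interval of the ratio that excluded 1. Of 12064 genes with at least 50 reads, 1245 (10.3%) were lower in the DHA library by this rule and 811 (6.72%) higher. The median log2 ratio of those 12064 genes was 0.04. Markers of pancreatic ductal epithelium were present in both libraries, with a summed level over 8 genes of 3437 CPM untreated and 1382 CPM after DHA, and 6 of the 7 with enough reads were lower by the size rule, among them CDH1 (933 and 23 reads) and EPCAM (1396 and 249), both cell adhesion genes.

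Among the APOBEC3 genes 4 of 7 reached 50 reads, and all 4 passed the size rule as lower in the DHA library, beside 10.3% of all genes tested. APOBEC3B, APOBEC3C and APOBEC3F reached the read minimum in both libraries, and APOBEC3G reached it through the untreated library alone. The log2 ratios of these 4 genes had a median of -2.14, or 4.40-fold lower. Without APOBEC3G, which was picked for its low value, the other 3 had a median ratio 4.06-fold lower. Summed over the 7 genes, the family had 2905 reads (189 CPM) in untreated cells and 601 (41.2 CPM) in DHA-treated cells, 4.57-fold lower (95% counting interval 4.19 to 5.01). In bulk RNA, fewer cells that express a gene and less RNA in each cell cannot be told apart.

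APOBEC3G (ENSG00000239713, chromosome 22, 39077005 to 39087743, plus strand) encodes the cytoplasmic 2-domain enzyme that is packaged into virions and is the best known target of Vif. Untreated cells gave 99 reads of it and DHA-treated cells gave 2. These are 6.43 CPM (5.23 to 7.83) and 0.137 CPM (0.0166 to 0.496), so the libraries did not overlap within counting error. The ratio was 37.7-fold lower in the DHA library, with a counting interval of 12.6 to 392, and with 2 reads added in place of 0.5 it was 23.9-fold. It was the 11th lowest ratio of the 12064 genes tested. Of 1004 genes with 75 to 125 reads in untreated cells, 4 had at most 2 reads after DHA, APOBEC3G among them, and the median gene had 86. APOBEC3G was picked for its low value and passed the read minimum through the untreated library alone, so both positions restate that choice.

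APOBEC3C (ENSG00000244509, chromosome 22, 39014083 to 39020352, plus strand), a single-domain enzyme with weak antiviral activity, was the most abundant member in both libraries. Untreated cells gave 1970 reads (128 CPM, 122 to 134) and treated cells 390 (26.8 CPM, 24.2 to 29.5). That is 4.78-fold lower (4.29 to 5.35), the narrowest interval in the family. APOBEC3C thus carried most of the family's absolute difference in reads, although its ratio was much less extreme than that of APOBEC3G.

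APOBEC3B (ENSG00000179750, chromosome 22, 38982347 to 38992804, plus strand) encodes the mainly nuclear 2-domain enzyme linked to mutations in carcinomas. Its reads numbered 517 (33.6 CPM, 30.8 to 36.6) untreated and 130 (8.92 CPM, 7.45 to 10.6) after DHA. The ratio was 3.75-fold lower (3.10 to 4.60), the smallest difference of the 4 members. APOBEC3F (ENSG00000128394, chromosome 22, 39040604 to 39053910, plus strand), a 2-domain antiviral enzyme that is also degraded through Vif, had 306 reads (19.9 CPM, 17.7 to 22.2) against 71 (4.87 CPM, 3.80 to 6.14). It was 4.06-fold lower (3.14 to 5.36), between APOBEC3B and APOBEC3C.

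The remaining 3 members had too few reads for the size rule. APOBEC3D (ENSG00000243811, chromosome 22, 39021113 to 39033276), another 2-domain antiviral enzyme, had 13 reads untreated and 6 after DHA, a ratio of 1.97-fold lower with a counting interval from 0.728 to 6.58 that includes 1. APOBEC3H (ENSG00000100298, chromosome 22, 39097224 to 39104067), a single-domain member, had 0 and 2 reads. APOBEC3A (ENSG00000128383, chromosome 22, 38952741 to 38992778), a single-domain enzyme known from myeloid cells and keratinocytes, had 0 in both. A floor of 3 reads was set for a gene with 0, equal to 0.195 CPM untreated and 0.206 CPM after DHA and lower than the upper ends of the exact Poisson intervals at 0 reads (0.240 and 0.253 CPM), so no difference was detectable for APOBEC3A and APOBEC3H at this depth. A transcribed unprocessed pseudogene between APOBEC3G and APOBEC3H, AL031846.1, had 6 reads untreated and 0 after DHA.

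**Figure D1:**
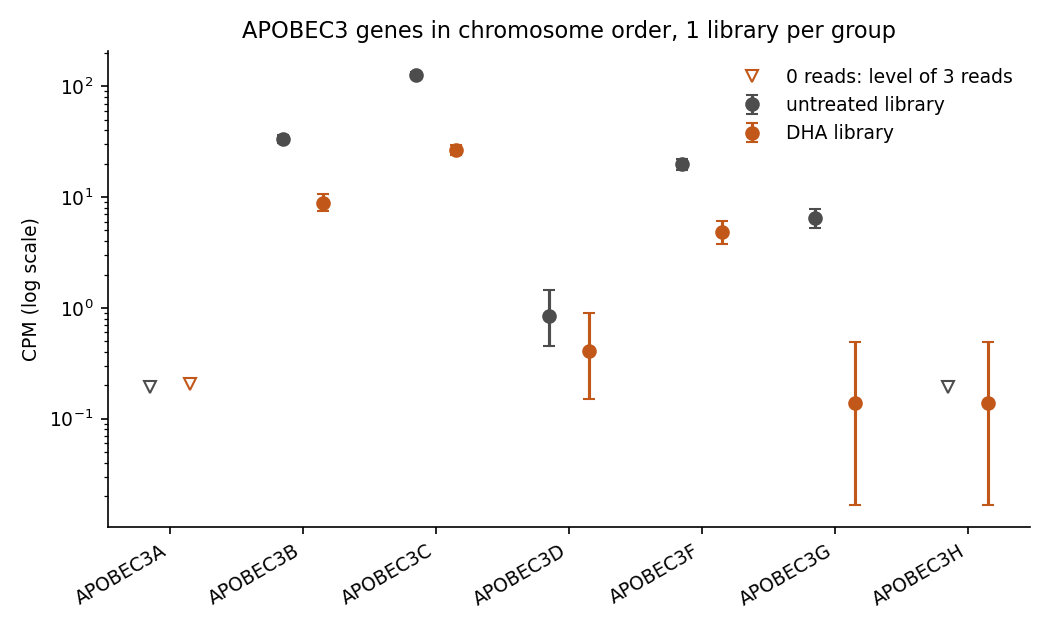
Level of each APOBEC3 gene in CPM on a log axis, in chromosome order, in the untreated (grey) and DHA (orange) library, with 95% counting intervals and open triangles at the level of 3 reads where a library had 0. The intervals of the libraries are apart for APOBEC3B, APOBEC3C, APOBEC3F and APOBEC3G and overlap for APOBEC3D.

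**Figure D2:**
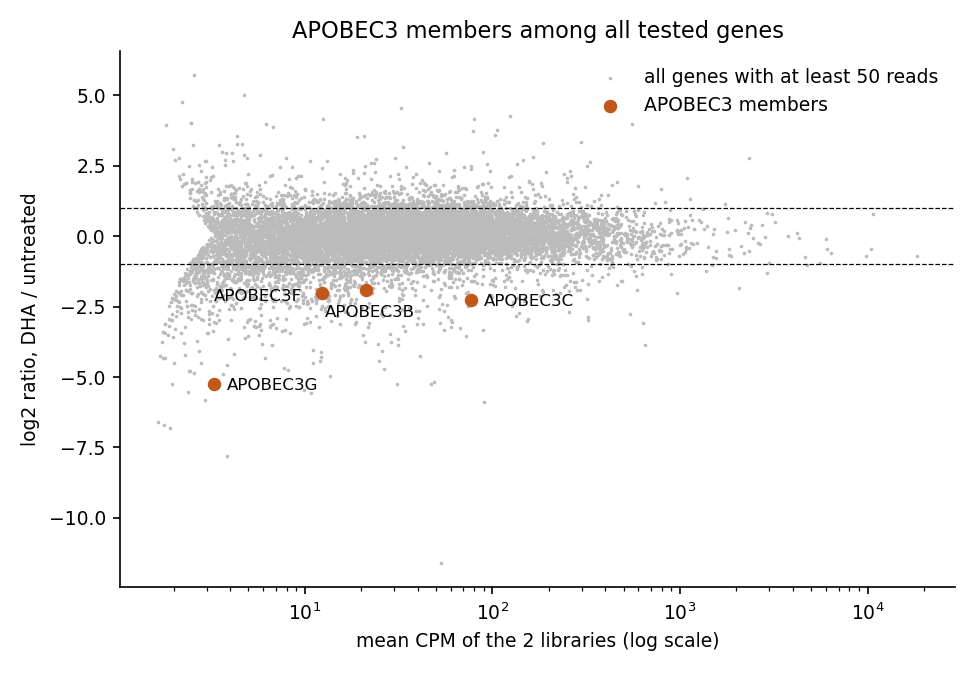
Log2 ratio (DHA over untreated) against mean CPM (log axis) for 12064 genes with at least 50 reads (grey) and the 4 APOBEC3 genes among them (orange), with dashed lines at 2-fold. APOBEC3B, APOBEC3C and APOBEC3F lie close together near -2, and APOBEC3G lies at -5.24 among the lowest values.

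Levels of different genes were compared per length, as TPM (transcripts per 1000000, from the counts and the deposited gene length). In the untreated library the order was APOBEC3C at 144 TPM, APOBEC3B at 56.3, APOBEC3F at 19.5, APOBEC3G at 3.76 and APOBEC3D at 1.06. APOBEC3D shares 83.2% of its exon length with AL022318.4, which had 0 reads in both libraries. How shared reads were counted is not known, so the place of APOBEC3D in the order is uncertain. In the DHA library APOBEC3C had 33.8 TPM, APOBEC3B 16.7 and APOBEC3F 5.34, so the leading 3 kept their order. APOBEC3D followed at 0.579 TPM, APOBEC3H at 0.390 and APOBEC3G at 0.0897, from 6, 2 and 2 reads. The order of those last 3 rests on counts too small to separate them.

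The deposited length of APOBEC3G, 5437 bases, joins the exons of all its annotated transcripts, whereas its principal coding transcript has 1834 bases. With the transcript's length the level of APOBEC3G was 11.1 TPM untreated and 0.266 TPM after DHA, still below APOBEC3F at 23.4 and 6.43 TPM. Among the 12064 genes tested, 7.15% had a higher TPM than APOBEC3C among untreated reads and 38.8% after DHA. For APOBEC3B the shares were 21.1% and 59.4%, for APOBEC3F 49.95% and 84.3%, and for APOBEC3G 89.7% and 99.9%. APOBEC3G reached the 50 reads that admit a gene to this comparison through the untreated library alone and was picked for its low value after DHA, so its low position after DHA is set by that choice.

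The intervals of each member's share of the family's reads overlapped between the libraries, apart from those of APOBEC3G. Overlap of intervals does not show that shares are equal. The ratio of APOBEC3C to APOBEC3B reads was 1.27 times lower in the DHA library, with an interval (1.01 to 1.59) that excluded 1. APOBEC3C took 67.8% of the 2905 APOBEC3 reads from untreated cells (exact binomial 95% interval 66.1 to 69.5) and 64.9% of the 601 from treated cells (60.9 to 68.7), with overlapping intervals. APOBEC3B took 17.8% (16.4 to 19.2) and 21.6% (18.4 to 25.1), and APOBEC3F 10.5% (9.44 to 11.7) and 11.8% (9.34 to 14.7), again overlapping. APOBEC3G took 3.41% (2.78 to 4.13) untreated and 0.333% (0.0403 to 1.20) after DHA, and these intervals were apart. APOBEC3A had 0 reads, which by the floor of 3 reads allows a share of up to 0.103% and 0.499%, and by the exact binomial interval up to 0.127% and 0.612%.

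**Figure D3:**
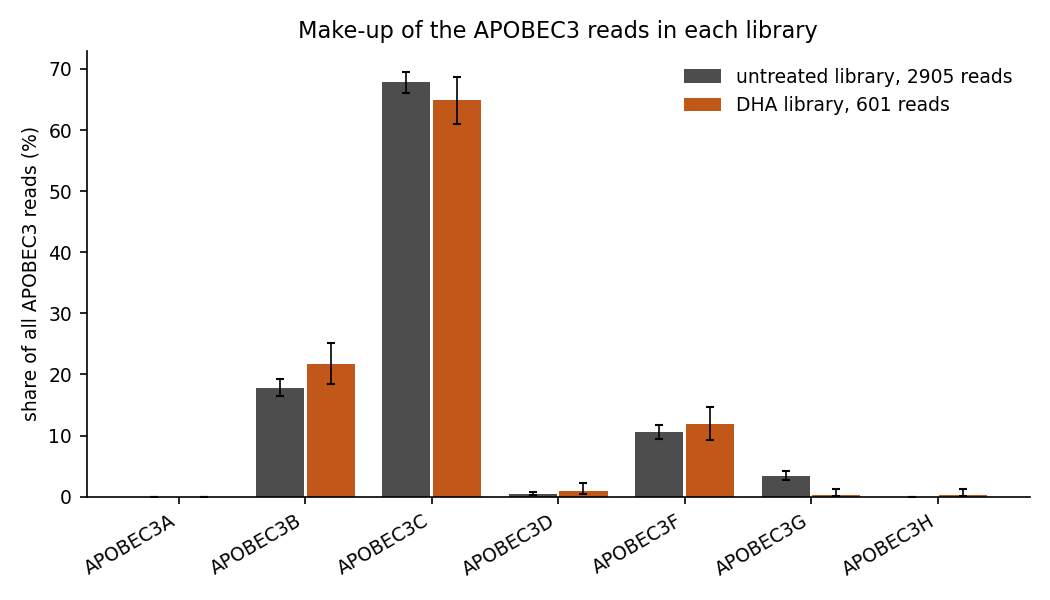
Share of all APOBEC3 reads taken by each gene in the untreated (grey, 2905 reads) and DHA (orange, 601 reads) library, with exact binomial 95% intervals where a gene had reads. The bars of APOBEC3B, APOBEC3C and APOBEC3F are of like height in both libraries, and that of APOBEC3G goes from 3.41% to 0.333%.

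Comparing members directly needs no scaling of the libraries, because the ratio of reads of one gene to another is taken within each library. The ratio of APOBEC3G to APOBEC3C reads was 9.80 times lower in the DHA library (95% counting interval 2.62 to 82.3). That of APOBEC3G to APOBEC3F was 11.5 times lower (2.96 to 98.1) and to APOBEC3B 12.4 times lower (3.27 to 105). Against the other 6 members together it was 10.6 times lower (2.83 to 88.7). All 4 intervals excluded 1, for a gene that was picked for its low value.

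The other 3 members with enough reads could hardly be told apart. The ratio of APOBEC3C to APOBEC3B reads was 1.27 times lower in the DHA library (1.01 to 1.59). APOBEC3C against APOBEC3F gave 1.17 (0.872 to 1.56) and APOBEC3F against APOBEC3B 1.08 (0.777 to 1.52), both intervals including 1. These are 6 pairs in all, with intervals not adjusted for their number.

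The genes around the cluster differ from it in function and were read beside it. The window from 500 kb before to 500 kb after the cluster holds 49 other genes, of which 19 had at least 50 reads, all protein-coding. Of these, 5 (26.3%) passed the size rule as lower and 1 (5.26%) as higher, beside 10.3% and 6.72% of all genes. Over chromosome 22 as a whole, 34 of 280 genes tested (12.1%) were lower. The neighbours' median log2 ratio was -0.26, with 11 below and 8 above 0. It was -2.14 for the 4 APOBEC3 genes, among them APOBEC3G, which was picked for being low beside these neighbours. Without APOBEC3G the other 3 had a median ratio 4.06-fold lower.

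The nearest tested gene on either side was a chromobox gene of the Polycomb group, and neither passed the size rule. CBX6, on the APOBEC3A side, had 1818 reads untreated and 1860 after DHA, a log2 ratio of 0.11 (0.02 to 0.21). CBX7, on the APOBEC3H side, had 72 and 69 reads, a log2 ratio of 0.02 (-0.48 to 0.51). The ratio of APOBEC3G to CBX6 reads was 50.6 times lower in the DHA library (13.6 to 424), and that of APOBEC3C to CBX6 5.17 times lower (4.55 to 5.88). Against CBX7 these values were 46.8 (11.8 to 407) and 4.84 (3.36 to 6.95). APOBEC3G was picked for being low beside its neighbours, so its intervals against them restate that choice. No gene with enough reads lies between the 4 members, and of the 4 other genes inside the cluster 3 had 0 reads in both libraries.

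Farther out, the neighbours went both ways. MGAT3, a glycosyltransferase gene that adds the bisecting sugar to N-glycans, was the lowest neighbour, with 140 reads against 17 and a 7.60-fold lower ratio (4.70 to 13.8). That is below APOBEC3C, although the ratio of their reads differed by less than counting error, at 0.613 (0.343 to 1.03). APOBEC3G, picked for being low beside its neighbours, remained below MGAT3, 5.98 times (1.37 to 54.5). The other lower neighbours differed less. KDELR3, a receptor that retrieves proteins to the endoplasmic reticulum, was 2.57-fold lower, the synaptic vesicle gene SYNGR1 2.27-fold, the growth factor gene PDGFB 2.19-fold and the pentraxin receptor gene NPTXR 2.12-fold.

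ATF4, the stress-response transcription factor gene, was 2.80-fold higher at 2177 and 5763 reads, the only neighbour higher by the size rule. The deubiquitinase gene JOSD1 had a log2 ratio of 0.99, just short of 2-fold, followed by the dynein light chain gene DNAL4 at 0.74, the GTPase gene GTPBP1 at 0.66 and the mitochondrial dynamics gene MIEF1 at 0.47. RPS19BP1 had 0.12. The RNA helicase gene DDX17 had -0.13, CBY1 -0.26, TAB1, which encodes a partner of the kinase TAK1, -0.30, the ribosomal protein gene RPL3 -0.32, the nuclear envelope gene SUN2 -0.38 and the mitochondrial import gene TOMM22 -0.43. Their values lie on both sides of 0 at like distances from the cluster.

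**Figure D4:**
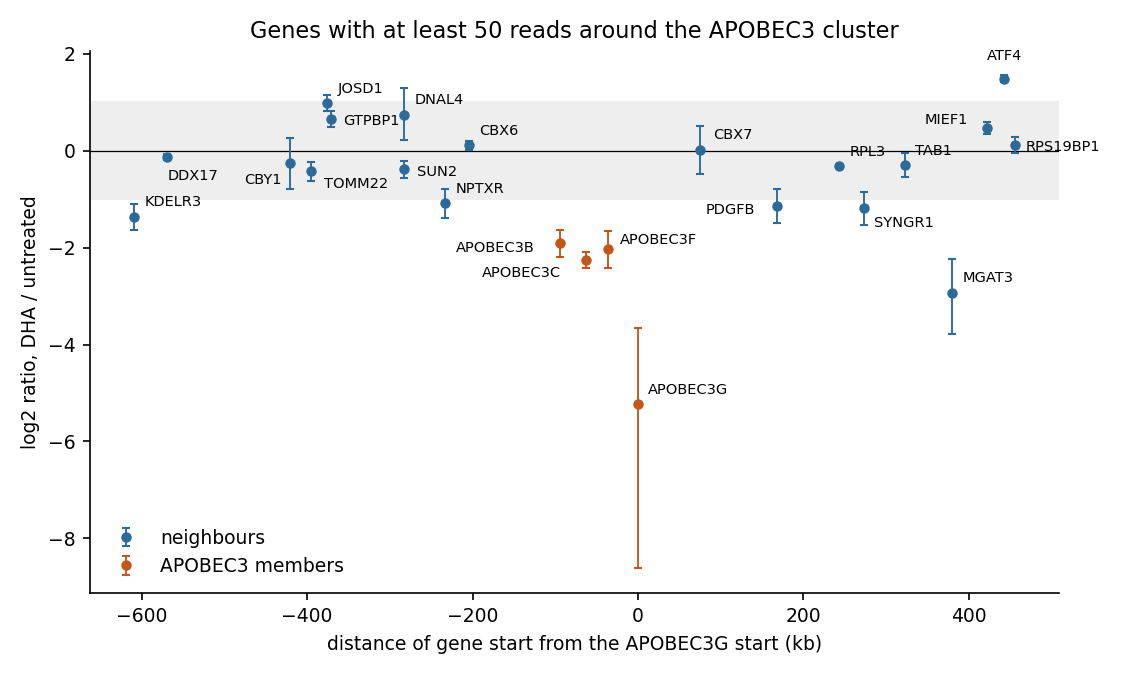
Log2 ratio (DHA over untreated) with 95% counting intervals, for the 4 APOBEC3 genes (orange) and the 19 neighbours (blue) with at least 50 reads, against the distance of the gene start from that of APOBEC3G in kb. The grey band marks less than 2-fold. The APOBEC3 genes lie at -1.91 or lower between CBX6 and CBX7, both near 0.

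By levels alone, the genes most like APOBEC3G were found among protein-coding genes with at least 50 reads, by the distance between their log2(TPM + 0.1) values over the 2 libraries. The nearest 5 were ANGPTL2 (an angiopoietin-like secreted protein, distance 0.275), HLA-DMB (a chaperone of peptide loading on HLA class II, 0.496), HYAL4 (a hyaluronidase family member, 0.519), SLC27A2 (a fatty acid transporter and acyl-CoA synthetase, 0.532) and KIF12 (a kinesin, 0.603). They had 50 to 77 reads untreated and 1 or 2 after DHA. The measure rests on 2 libraries and says only that these genes were similarly low.

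Lists of genes that act with or upon APOBEC3 enzymes were read beside the shares of all genes tested, 10.3% lower and 6.72% higher. Of 15 other deaminases and cofactors 9 had at least 50 reads, with 0 lower and 1 higher and a median log2 ratio of 0.06. The higher one was ADARB1, an adenosine deaminase that edits RNA, 2.12-fold at 129 and 259 reads. The abundant RNA editor ADAR had 7017 and 6943 reads, a log2 ratio of 0.06. RBM47, a cofactor of APOBEC1 editing, had -0.60, the tRNA deaminase gene ADAT2 -0.45 and the cytidine salvage enzyme gene CDA 0.55. The APOBEC genes outside chromosome 22 were hardly detected. APOBEC1, APOBEC2 and APOBEC4 had 0 to 2 reads in each library.

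Uracils that APOBEC3 enzymes leave in DNA are removed by base excision repair or bypassed by translesion polymerases. Of 20 such genes, all with enough reads, 2 were lower and 0 higher, with a median of -0.23, beside 10.3% lower and 6.72% higher among all genes tested. The count of lower genes is close to that share and is no result about the list. UNG, the main uracil-DNA glycosylase, had 1170 reads against 389 and was 2.85-fold lower (2.54 to 3.20). LIG1, the replicative DNA ligase, had 961 against 212 and was 4.28-fold lower, a log2 ratio of -2.10 (-2.32 to -1.89). REV3L, the catalytic subunit of polymerase zeta, had a log2 ratio of -0.79 and the flap nuclease gene FEN1 -0.72. The other uracil glycosylases lay closer to 0, SMUG1 at -0.03, MBD4 at 0.08 and TDG at 0.24.

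The genes of the cullin ligase that Vif uses had 0 of 8 members past the size rule and a median of 0.02. UBE2F, a NEDD8-conjugating enzyme, had a log2 ratio of 0.94, the substrate adaptor gene ELOB -0.37, the ubiquitin ligase gene ARIH2 0.32 and the scaffold gene CUL5 0.24. Of 23 other antiviral and retroelement restriction factors 19 had enough reads, with 1 lower, 0 higher and a median of -0.16, beside 10.3% and 6.72% of all genes tested. The lower one was IFITM2, which blocks virus entry, 3.48-fold (2.66 to 4.67) at 244 and 66 reads. The helicase gene MOV10 had -0.77, SLFN11, a restriction factor and replication stress gene, -0.67, and SERINC3, which lowers virion infectivity, 0.77.

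Transcription factors linked to APOBEC3 expression went both ways. Of 21 with enough reads, 3 were higher and 1 lower, with a median of -0.09, beside 6.72% higher and 10.3% lower among all genes tested. The higher ones were subunits of NF-kB, a family known to drive APOBEC3B transcription. Other subunits on the list, NFKB1 at a log2 ratio of 0.64 and REL at -0.21, did not pass. NFKB2 was 2.69-fold higher at 671 and 1710 reads, RELB 2.28-fold at 151 and 327, and RELA 2.03-fold at 2083 and 4000. RELA did not pass with DESeq2 size factors (log2 ratio 0.98) or upper-quartile scaling (0.95).

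APOBEC3G and APOBEC3F are also known as interferon-inducible, and the interferon list did not move in 1 direction. Of 20 genes with enough reads 4 were higher and 4 lower, with a median of -0.05. Among all genes tested 6.72% were higher and 10.3% lower, so both counts lie above those shares, which was not tested. IFI27 was 7.29-fold higher (21 and 148 reads), IRF7 3.17-fold and RSAD2 2.93-fold higher, and CMPK2, a nucleotide kinase gene, 3.66-fold lower (98 and 25 reads).

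**Figure D5:**
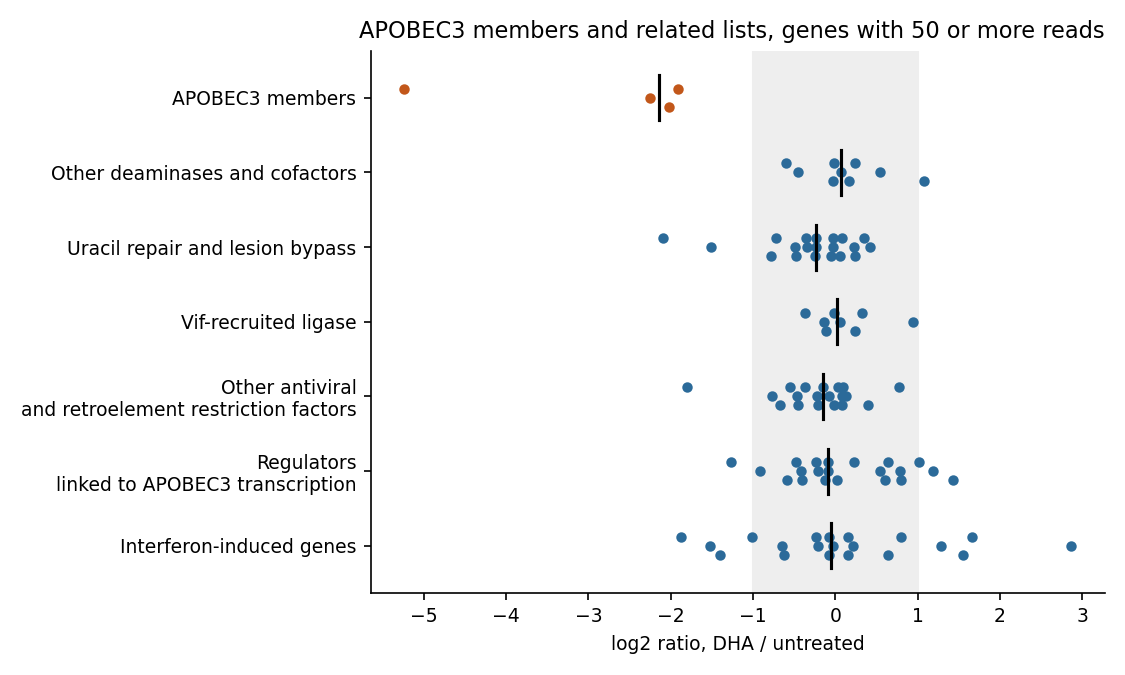
Log2 ratio (DHA over untreated) for the 4 APOBEC3 genes with at least 50 reads (orange) and for 6 related lists (blue), with a point per gene, a black line at each median and a grey band for less than 2-fold. The APOBEC3 median is -2.14, with APOBEC3G, picked for its low value, included. The medians of the lists lie between -0.23 and 0.06.

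Because APOBEC3 genes are prominent in blood cells, markers of those cells were read in the same libraries. The 11 T and NK cell markers had 5 reads in all untreated and 8 after DHA (0.325 and 0.549 CPM), and 8 of the 11, including PTPRC, CD3D and CD3E, had 0 in both. The 5 B cell markers had 11 and 7 reads in all, with MS4A1 and PAX5 at 0 in both. The 8 myeloid markers had 37 and 22 reads (2.40 and 1.51 CPM), most of them from LYZ, with CD68, FCGR3A, S100A8 and S100A9 at 0. The 6 fibroblast markers had 130 and 14 reads (8.44 and 0.960 CPM), with COL1A1 6.87-fold lower and COL1A2, COL3A1 and DCN at 0. COL1A1 alone gave 83 of the 130 and 11 of the 14 reads. The summed levels of the fibroblast and epithelial marker lists were thus lower in the same library as the APOBEC3 genes. Whether any reads came from fibroblasts, and any relation to the APOBEC3 values, was not tested.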

How the data were processed

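RNA-seq of 1 untreated and 1 DHA-treated library was analysed, grouped by the treatment label. The deposited values are whole-number read counts per gene, not normalized by the authors per the file headers and values, beside gene lengths. RNA was extracted with Trizol for an Illumina kit, per the labels' protocols, which also name retina. The submitters' processing notes list mm8, but all 58735 gene rows match GENCODE 29 (human, GRCh38) in identifier and coordinates. The aligner, the counting tool and strand use were not given in the sources used here.

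Counts were scaled by TMM (edgeR 4.0.16 in R 4.3.3; factors 0.996 and 1.004). Ratios were taken after adding 0.5 reads, with Clopper-Pearson counting intervals of 95%. CPM intervals are exact Poisson, and ratios between genes are conditional odds ratios with exact intervals. PCR copies are not independent molecules, so intervals and floors cover counting error only. Sequence windows came from the principal (APPRIS) transcripts. Alternatives covered scaling (including DESeq2 1.42.0), pseudocount, read minimum, fold, interval and window. The members and lists were chosen with earlier results of these data known. Named genes are all members, all tested protein-coding genes within 500 kb, up to 4 genes per list with the most extreme log2 ratio, and the 5 genes most like APOBEC3G. ADAR, APOBEC1, APOBEC2, APOBEC4, SMUG1, MBD4, TDG, NFKB1, REL and the pseudogene were named after their values were seen. Some genes of the lists are counted but not reported here by name.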

Additional observations from a re-analysis of the deposited data

How the results depend on the processing

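The APOBEC3 ratios kept their direction under every alternative run. Of the 4 members, 3 passed with a minimum of 200 reads (APOBEC3G did not reach it) and 3 at 4-fold (APOBEC3B fell short), and all 4 under the other settings. Adding 2 reads instead of 0.5 gave APOBEC3G a log2 ratio of -4.58. Over the 5 other scalings the log2 ratio of APOBEC3G ranged from -5.30 to -5.22, and the family median from -2.20 to -2.13. APOBEC3A, APOBEC3D and APOBEC3H had too few reads for a call, and APOBEC3G had a wide interval. Whether the exon overlap with AL022318.4 lowered the APOBEC3D count was not tested. Counts over other genes moved with the thresholds. For all genes, 2126 were lower and 1297 higher with a minimum of 10 reads, 2386 and 1432 with a minimum of 1 read, and 688 lower with a minimum of 200. At 1.5-fold these were 2320 and 2284, and at 4-fold 340 and 110. Of the chromosome 22 neighbours, 8 were lower with a minimum of 1 read, 4 higher at 1.5-fold, and 1 lower and 0 higher at 4-fold. Within 250 kb 3 were lower and 0 higher, and within 1000 kb 7 were lower and 3 higher, beside 5 and 1 within 500 kb. Shares of the genes tested in these other windows were not computed, so their counts cannot be read beside the shares of all genes. Over the related lists together (8 lower, 8 higher), 16 and 16 passed at 1.5-fold and 1 and 1 at 4-fold. Each follows from the threshold or window itself. TPM with principal transcript lengths was chosen after seeing the data. No paired analysis was possible because each group has 1 library.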
